A study of Mus musculus with 6 samples.

Results

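The immediate early activation genes are 10 genes chosen by symbol from the 23415 gene models of the deposited tables: the nuclear receptors Nr4a1, Nr4a2 and Nr4a3, the zinc finger factors Egr1, Egr2 and Egr3, the AP-1 subunits Fos, Jun and Junb, and the surface lectin Cd69. All 10 were found, each as 1 entry, in all 6 libraries. The study sequenced RNA of CD4 T cells from C57/Bl6j mice at 7 weeks of age. The mice were wild-type (WT) or NLRP3KO, without the inflammasome sensor NLRP3. For each genotype there was 1 library of naive T cells of spleen and lymph nodes, 1 of T helper type 2 (Th2) cells at day 3 and 1 at day 6. Th2 cells were grown in RPMI medium with serum in wells coated against CD3 and CD28, and received IL-4 (10 ng/ml) together with a blocking antibody to interferon gamma. RNA came from 300000 Th2 cells, and ribosomal RNA was removed from 1 µg of it. The labels call the RNA of the 2 naive libraries purified mRNA, although their protocol text names ribosomal RNA removal or mRNA purification. The sample descriptions were followed here, so the RNA selection and the stage cannot be told apart in any comparison of Th2 with naive cells. How many mice gave the cells, and whether cells were pooled, is not given in the labels. With 1 library per group no comparison has a replicate check, and each difference below is between 2 libraries.

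Immediate early genes are transcribed within a short time of a signal, without the need for new protein, and their transcripts are short-lived. In T cells the antigen receptor acts on them through calcium with calcineurin and NFAT, and through the ERK pathway, which drives serum response factor and its partners. Most of their products then act on later genes. FOS and JUN proteins pair into AP-1, EGR proteins are held back by the corepressors NAB1 and NAB2, and NR4A proteins damp the response. CD69 keeps freshly activated cells in lymphoid tissue by pulling the sphingosine phosphate receptor S1PR1 off the surface.

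The promoter windows of 3 members are shown because these genes lead the results that follow. Fos and Junb were the most abundant members in naive cells. Egr2 was the member with the largest scaled difference upward at day 3 in WT (log2 difference 2.37). In NLRP3KO that member was Egr3 (1.34), with Egr2 at 0.47. Each window holds the 250 bases before a RefSeq transcription start on GRCm38.p6. Capitals mark TGACG on either strand, the core of the cAMP response element, and the CArG box, the core of the serum response element. Fos lies at chr12:85473640-85473889 on the plus strand, Junb at chr8:84978749-84978998 on the minus strand and Egr2 at chr10:67537619-67537868 on the plus strand.
Fos: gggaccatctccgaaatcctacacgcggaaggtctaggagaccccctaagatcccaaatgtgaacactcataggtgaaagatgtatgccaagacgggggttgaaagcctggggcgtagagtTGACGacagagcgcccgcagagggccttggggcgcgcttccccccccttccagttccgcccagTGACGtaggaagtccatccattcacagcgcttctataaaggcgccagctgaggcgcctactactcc
Junb: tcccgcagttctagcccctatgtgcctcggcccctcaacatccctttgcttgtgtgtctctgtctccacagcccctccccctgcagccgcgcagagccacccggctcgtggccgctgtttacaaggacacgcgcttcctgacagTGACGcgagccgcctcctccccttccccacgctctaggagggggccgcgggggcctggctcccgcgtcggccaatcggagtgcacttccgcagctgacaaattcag
Egr2: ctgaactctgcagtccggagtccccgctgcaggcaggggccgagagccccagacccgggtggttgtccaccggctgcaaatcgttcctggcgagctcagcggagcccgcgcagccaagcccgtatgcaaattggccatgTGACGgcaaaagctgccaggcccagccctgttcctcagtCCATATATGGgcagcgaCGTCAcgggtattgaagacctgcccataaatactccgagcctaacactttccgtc

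In the Fos window TGACG begins 129 and 66 bases before the start. The Junb window holds it once, 106 bases before the start. The Egr2 window holds it 111 bases before the start and, on the other strand, 55 bases before it, with the CArG box between them at 72 bases. Egr2 has further windows at other starts, which are not printed. That at chr10:67535249-67535498 holds no TGACG and no CArG box, and that at chr10:67537316-67537565 a CArG box without TGACG. Of the 10 members 7 had a window in the table (all but Egr1, Egr3 and Cd69), and TGACG, searched on both strands, was in a window of 6 of these 7 (Egr2, Fos, Junb, Nr4a1, Nr4a2 and Nr4a3) and in 19.8% of all 27025 genes. The CArG box was in windows of Egr2 alone among the 7, and in 1.62% of all genes. The palindrome TGACGTCA, which contains TGACG, was in none of the 7 and in 1.77% of genes. TGANTCA, the AP-1 site, was also in none of the 7 and in 7.82% of genes, while GCGGGGGCG, the EGR site, was in Nr4a1 and in 2.93% of genes. TATAAA was in Fos and Nr4a2 and in 14.3% of genes. GGAAA, the NFAT core, was in Egr2, Jun and Nr4a2 and in 58.8% of genes, and CCGGAAG, an ETS site, in none of the 7 and in 7.83%. These matches describe letters in a short window that is rich in G and C, with 58.4% in Fos, 66.4% in Junb and 74.4% in Nr4a1 against a median of 52.4% over all windows. Variants of these patterns and bases further upstream were not searched, so a member without a match may still hold such a site.

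The members are compact genes. On mm9, the build of the deposited tables, their median span was 4035 bases against 14625 over all entries, and 6 of 10 spanned under 5000 bases, as did 26.5% of entries. In the transcript annotation used (GENCODE M21 on GRCm38) their median exon number was 3 against 7 over 21669 genes, and Jun and Junb have 1 exon. The pentamer ATTTA, the core of the AU-rich elements that mark short-lived transcripts, occurred at a median of 2.57 per kilobase of 3′ UTR in the members against 1.13 over all genes. Nr4a1 with 5.49, Fos with 4.89 and Junb with 4.10 were the densest, and 7 of 10 members held at least 3 copies, against 34.0% of genes. The number of copies is not corrected for the length of the 3′ UTR, whose median was 1211 bases in the members and 887 over all genes. At least 5 copies per kilobase were found in 1 of 10 members and in 7.35% of genes.

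The tables give FPKM, a level corrected for transcript length and library size, each with a lower and an upper confidence bound. The libraries differed in depth. With WT day 3 set to 1, the naive libraries had a relative depth of 7.57 (WT) and 5.15 (NLRP3KO). That of NLRP3KO was 0.787 at day 3 and 0.215 at day 6, and that of WT at day 6 was 0.931. Rn45s, the ribosomal RNA precursor, was listed at 10783 and 7819 FPKM in the naive libraries and between 53218 and 67266 in the Th2 libraries, and lowers all other FPKM there. Nlrp3 was listed at 0.0569 FPKM (bounds 0 to 0.163) in naive WT and at 0 in the other 5 libraries, so it checks no label. Summed FPKM of 8 T cell markers was 1478 and 1908 in the naive libraries and 50.9 to 72.2 in the Th2 libraries, with Cd3d and Trat1 at 0 in NLRP3KO day 3 and Cd3g, Lck and Trat1 at 0 in NLRP3KO day 6. Gata3, the factor that defines Th2 cells, was between 5.03 and 15.6 FPKM in the Th2 libraries and at 13.5 and 16.2 FPKM in the naive ones, while Il4 was above 0 in WT day 3 alone, at 3.77 FPKM (bounds 0 to 18.9).

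The 9 members whose bounds could be read as whole fragments (all but Nr4a2) held 2273 fragments in naive WT and 2594 in naive NLRP3KO, but 33 in each day 3 library, 38 in WT day 6 and 7 in NLRP3KO day 6. All 10 members were above 0 in both naive libraries. At day 3 there were 7 members above 0 in WT and 6 in NLRP3KO, and at day 6 there were 8 and 5. Most Th2 values of single members therefore rest on a handful of fragments, and a member listed at 0 there may be expressed below the level of 3 fragments, which corresponds for Fos to 2.54 FPKM in WT day 3 and to 11.8 FPKM in NLRP3KO day 6. In bulk samples such as these, fewer cells that express a gene and less of its RNA per cell cannot be told apart.

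**Figure D1:**
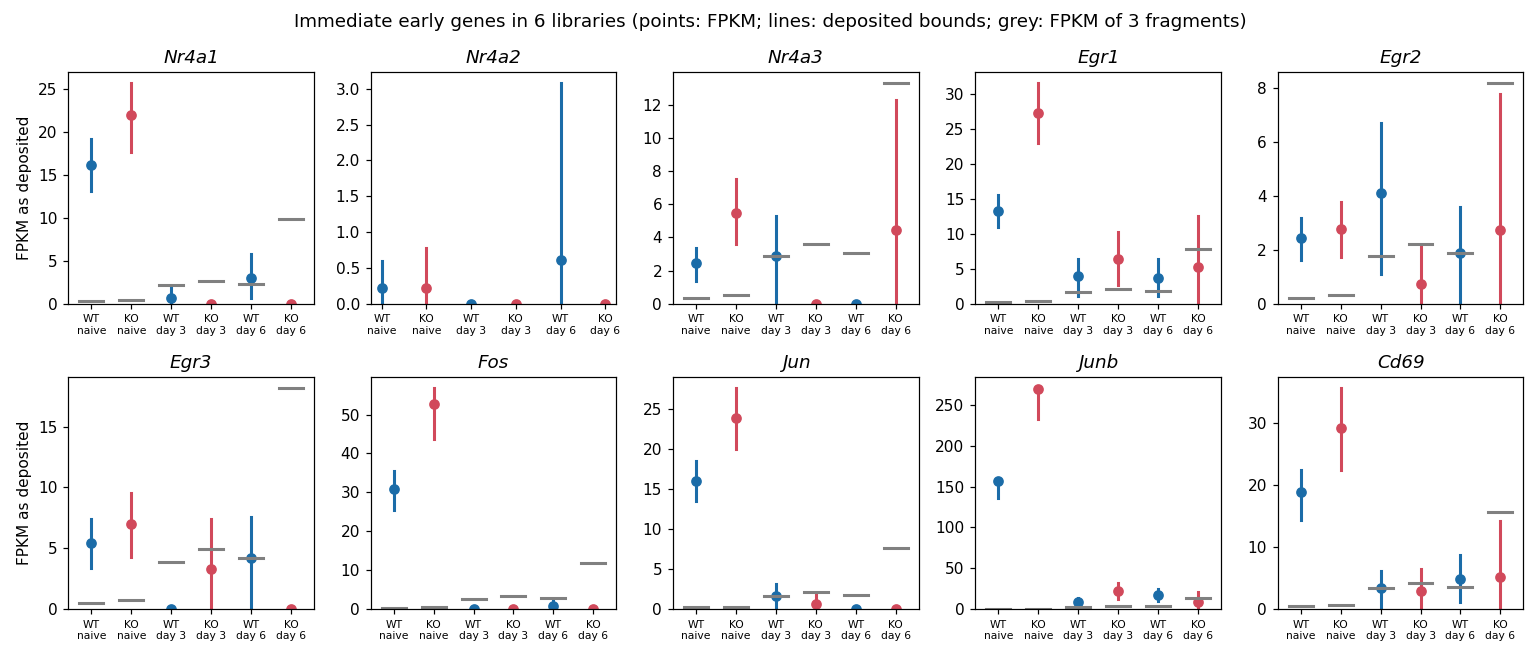
FPKM of each of the 10 members in the 6 libraries, 1 library per group, with the deposited bounds as lines and the FPKM that 3 fragments would give as grey marks (not drawn for Nr4a2). In 8 of the 10 panels the highest point is the naive NLRP3KO library, and in the exceptions, Egr2 and Nr4a2, it is WT day 3 and WT day 6.

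The AP-1 subunits were the most abundant members. Junb (chr8:87500808-87502647 on mm9), a subunit that also takes part in Il4 transcription in Th2 cells, was at 157 FPKM (bounds 136 to 159) in naive WT and 269.9 FPKM (233 to 271) in naive NLRP3KO. In the Th2 libraries Junb was at 8.79 FPKM (3.60 to 13.5) in WT day 3, 22.3 (12.6 to 32.0) in NLRP3KO day 3, 17.8 (9.66 to 25.1) in WT day 6 and 9.11 (0 to 20.9) in NLRP3KO day 6. It had the highest FPKM of the 10 members in all 6 libraries, and ranked between 93 and 417 among all entries. The bounds of Junb did not overlap those of the next member in 4 libraries, and did in WT day 3 and NLRP3KO day 6.

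Fos (chr12:86814851-86818219), the partner that pairs with JUN proteins, was at 30.8 FPKM (25.4 to 35.4) in naive WT and 52.8 (43.8 to 56.8) in naive NLRP3KO. It was listed at 0 in WT day 3, NLRP3KO day 3 and NLRP3KO day 6, and at 0.911 FPKM (0 to 2.55) in WT day 6. That value is 1 fragment, the only Fos fragment in the 4 Th2 libraries, against 275 and 321 in the naive ones. Fos was thus the second member in order of level in naive cells, apart from its neighbours in that order by non-overlapping bounds, and at or next to 0 in every Th2 library.

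Jun (chr4:94715727-94718913) was at 16.0 FPKM (13.5 to 18.5) in naive WT and 23.9 (20.1 to 27.6) in naive NLRP3KO. In WT day 3 it was at 1.63 FPKM (0 to 3.12) and in NLRP3KO day 3 at 0.692 (0 to 1.98), from 3 fragments and 1 fragment, and both day 6 libraries listed it at 0. As deposited, all Th2 values of Jun lay below both naive values, and the day 3 upper bounds did not reach the naive lower bounds. The day 6 values rest on 0 fragments, where 3 fragments would give 1.75 FPKM in WT and 7.60 in NLRP3KO. After scaling the bounds of WT day 3 and naive WT overlap.

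Among the EGR factors, Egr1 was the most abundant in naive cells and kept fragments in every Th2 library. It was at 13.3 FPKM (11.0 to 15.6) in naive WT, 27.3 (23.0 to 31.6) in naive NLRP3KO, 3.96 (1.08 to 6.46) in WT day 3, 6.47 (2.74 to 10.3) in NLRP3KO day 3, 3.64 (1.16 to 6.37) in WT day 6 and 5.27 (0 to 12.5) in NLRP3KO day 6. The 4 Th2 values rest on 7, 9, 6 and 2 fragments and their bounds overlap one another.

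Egr2 (chr10:67000617-67004936), which with Egr3 is known for restraining T cell activation, was at 2.43 FPKM (1.62 to 3.17) in naive WT and 2.77 (1.73 to 3.79) in naive NLRP3KO. Its Th2 values were 4.11 FPKM (1.12 to 6.70) in WT day 3, 0.746 (0 to 2.13) in NLRP3KO day 3, 1.89 (0 to 3.60) in WT day 6 and 2.74 (0 to 7.80) in NLRP3KO day 6. Among the 9 members with fragments, Egr2 was the one whose highest deposited value came from a Th2 library, although the bounds of that value overlap those of both naive libraries. Egr3 (chr14:70477252-70479964) was at 5.47 FPKM (3.40 to 7.42) in naive WT and 7.02 (4.31 to 9.53) in naive NLRP3KO. In the Th2 libraries it was at 3.31 FPKM (0 to 7.43) in NLRP3KO day 3 and 4.18 (0 to 7.54) in WT day 6, from 2 and 3 fragments, and was listed at 0 in WT day 3 and NLRP3KO day 6. For Egr3 the Th2 bounds that are above 0 overlap the naive ones.

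The NR4A receptors differed widely in level among themselves. Nr4a1 (chr15:101097277-101105225), whose product NUR77 is widely used as a readout of antigen receptor signalling, was at 16.2 FPKM (13.2 to 19.2) in naive WT and 21.9 (17.6 to 25.7) in naive NLRP3KO. It was at 0.710 FPKM (0 to 2.01) in WT day 3 and 3.05 (0.718 to 5.75) in WT day 6, from 1 fragment and 4 fragments, and at 0 in both NLRP3KO Th2 libraries. Nr4a3 (chr4:48064120-48096224) was at 2.43 FPKM (1.39 to 3.37) in naive WT, 5.47 (3.58 to 7.50) in naive NLRP3KO, 2.86 (0 to 5.27) in WT day 3 and 4.44 (0 to 12.3) in NLRP3KO day 6, the last from 1 fragment, and at 0 in NLRP3KO day 3 and WT day 6. Nr4a2 (chr2:56959637-56976414) was barely detected: 0.219 FPKM (0 to 0.592) in naive WT, 0.226 (0 to 0.785) in naive NLRP3KO, 0.616 (0 to 3.08) in WT day 6 and 0 in the other 3 libraries.

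Cd69 (chr6:129217343-129225387), the single surface protein among the members, was at 18.9 FPKM (14.4 to 22.6) in naive WT and 29.2 (22.4 to 35.7) in naive NLRP3KO. It stayed above 0 in every Th2 library, at 3.37 FPKM (0 to 6.13) in WT day 3, 2.85 (0 to 6.49) in NLRP3KO day 3, 4.81 (1.10 to 8.78) in WT day 6 and 5.23 (0 to 14.3) in NLRP3KO day 6. Its Th2 values rest on 3, 2, 4 and 1 fragments and overlap in their bounds.

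The order of levels in naive WT was Junb, Fos, Cd69, Nr4a1, Jun, Egr1, Egr3, Nr4a3, Egr2 and Nr4a2. In naive NLRP3KO it was Junb, Fos, Cd69, Egr1, Jun, Nr4a1, Egr3, Nr4a3, Egr2 and Nr4a2. Neighbours from Cd69 to the sixth place overlap in their bounds in both libraries, as do Nr4a3 and Egr2. Egr3 and Nr4a3 overlap in naive NLRP3KO and not in naive WT. In the Th2 libraries every pair of neighbours below Junb overlapped, so no order is given for them.

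The make-up of the members' fragments within a library needs no scaling between libraries, although the 2 kinds of RNA selection still differ. Junb supplied 53.5% of the 9 members' fragments in naive WT and 54.8% in naive NLRP3KO, with 95% exact Clopper-Pearson intervals of 51.4% to 55.6% and 52.9% to 56.7%. At day 3 it supplied 27.3% (13.3% to 45.5%) in WT and 54.5% (36.4% to 71.9%) in NLRP3KO, and at day 6 it supplied 44.7% (28.6% to 61.7%) and 28.6% (3.67% to 71.0%). Fos supplied 12.1% (10.8% to 13.5%) in naive WT and 12.4% (11.1% to 13.7%) in naive NLRP3KO. It supplied 0 of 33 fragments in each day 3 library, with an upper limit of 10.6% by the same kind of interval, and 2.63% (0.0666% to 13.8%) in WT day 6. This day 3 limit lies only narrowly below the interval of naive WT, which begins at 10.8%, and below that of naive NLRP3KO, which begins at 11.1%. At day 6 the WT interval reaches the naive shares.

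Egr1 and Egr2 made up a larger part of the Th2 fragments. Egr1 supplied 7.83% (6.76% to 9.01%) in naive WT and 9.60% (8.49% to 10.8%) in naive NLRP3KO, against 21.2% (8.98% to 38.9%) in WT day 3, 27.3% (13.3% to 45.5%) in NLRP3KO day 3 and 15.8% (6.02% to 31.3%) in WT day 6. For Egr1 the interval of NLRP3KO day 3 lies above those of both naive libraries, and the other intervals overlap at least 1 naive interval. Egr2 supplied 1.36% (0.928% to 1.93%) in naive WT, 0.925% (0.594% to 1.37%) in naive NLRP3KO and 21.2% in WT day 3, with the same interval as Egr1 there, and 3.03% (0.0767% to 15.8%) in NLRP3KO day 3. For Egr2 WT day 3 stands above the naive libraries. These intervals cover counting error in amplified libraries without molecular identifiers, and compare libraries, not conditions.

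**Figure D2:**
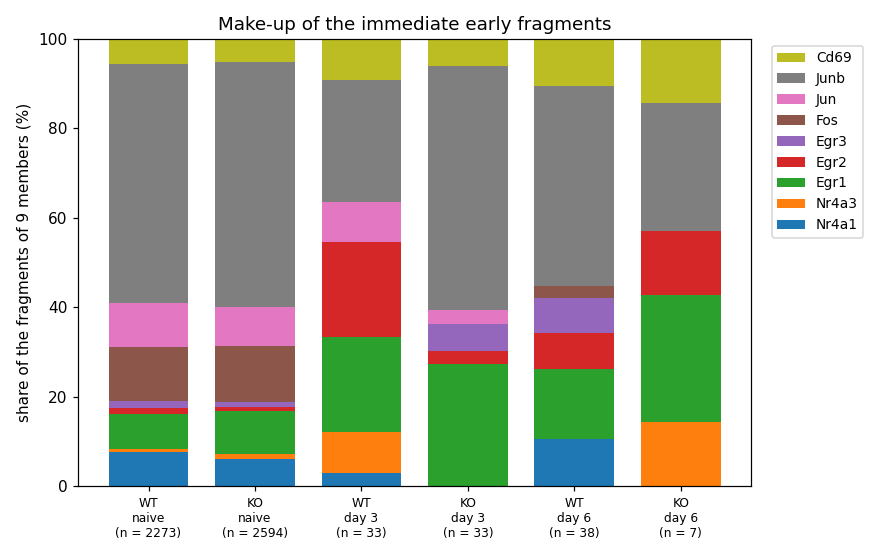
Share of each of 9 members (all but Nr4a2) in the members' summed fragments, in percent, 1 bar per library, with the number of fragments under each bar. The 2 naive bars look alike, with Junb at 53.5% and 54.8% and Fos at 12.1% and 12.4%, and the Th2 bars, built on 33, 33, 38 and 7 fragments, hold more Egr1 and almost no Fos.

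Ratios of length-normalized levels within a library need no scaling either. These pairs were chosen after their values were seen. The ratio of Junb to Fos was 5.11 in both naive libraries (counting intervals 4.48 to 5.85 in WT and 4.52 to 5.78 in NLRP3KO) and 19.5 (3.06 to 816) in WT day 6. The ratio of Egr1 to Egr2 was 5.47 (3.72 to 8.29) in naive WT, 9.87 (6.48 to 15.7) in naive NLRP3KO, 0.963 (0.288 to 3.22) in WT day 3 and 8.67 (1.20 to 380) in NLRP3KO day 3. At day 6 this ratio was 1.93 in both genotypes (0.412 to 11.9 in WT and 0.1003 to 114 in NLRP3KO). The intervals of both naive libraries and of NLRP3KO day 3 lie above 1, and those of the other 3 libraries include 1. The ratio of Junb to Egr1 was 11.8 (10.1 to 13.9) in naive WT and 9.87 (8.62 to 11.3) in naive NLRP3KO. The day 3 ratio came to 2.22 (0.736 to 7.02) for WT and 3.45 (1.47 to 8.73) for NLRP3KO, the day 6 ratio to 4.89 (1.84 to 15.1) and 1.73 (0.125 to 23.8). The interval of this ratio in WT day 3 lies below that of naive WT, while that of NLRP3KO day 3 overlaps that of naive NLRP3KO, and both day 6 intervals overlap the naive ones.

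For comparisons between libraries FPKM were scaled by the median ratio over the 1059 genes with at least 1 FPKM in all 6 libraries. A log2 difference is that of scaled FPKM plus 1, which understates the difference of low genes, and a gene at least 2-fold apart on this scale is counted. Counts cover the genes that reached 1 FPKM in either library of the comparison, called the genes kept. Member and list counts are given out of all listed genes, although those not kept could not be counted. Of the 10 members 9 were kept in each comparison that involves naive cells, and 7 between genotypes at day 3 and at day 6. From day 3 to day 6 there were 8 in WT and 6 in NLRP3KO. The members' median covers all 10, also those not kept.

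Naive NLRP3KO cells had higher deposited FPKM than naive WT cells for all 10 members, but part of that excess was shared by genes in general: the median log2 difference over genes above 0 in both libraries was 0.37 as deposited and 0.01 after scaling. After scaling, Egr1 was 1.54-fold higher in naive NLRP3KO (counting interval 1.26 to 1.87), from 249 against 178 fragments. Fos was 1.28-fold higher (1.09 to 1.51) and Junb 1.28-fold higher (1.19 to 1.38). The scaled bounds did not overlap for Egr1 and Junb, and overlapped for Fos and the 7 others. As deposited, the folds were 2.06 for Egr1 and 1.72 for both Fos and Junb.

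For the remaining members the interval of the fold included 1. Nr4a3 was 1.68-fold higher (0.914 to 3.16), Cd69 1.15-fold (0.898 to 1.48) and Jun 1.12-fold (0.925 to 1.35). Nr4a1, at 1.01-fold (0.810 to 1.26), hardly differed between the naive libraries. Egr3 was at 0.959-fold (0.556 to 1.64) and Egr2 at 0.850-fold (0.478 to 1.50), both slightly lower after scaling and higher as deposited (1.28-fold and 1.14-fold). Of the 10 members 0 were at least 2-fold higher and 0 lower, while 0.21% of the 9985 genes kept were higher and 2.32% lower. With scaled bounds apart as well the members again numbered 0 in both directions, against 0.0701% of genes higher and 1.8% lower. The members' median log2 difference was 0.16, against 0.01 over the genes kept, with 7 of 10 members above 0 as against 51.9% of genes. That median moved with the scaling and was 0.58 as deposited.

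**Figure D3:**
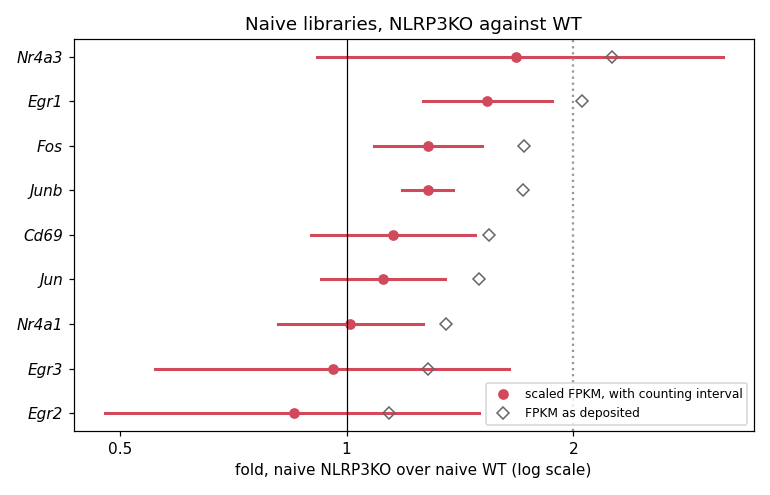
Fold of 9 members in the naive NLRP3KO library over the naive WT library, on a log axis: filled points are scaled FPKM with 95% counting intervals, open diamonds FPKM as deposited, and the dotted line marks 2-fold. The intervals of Egr1, Fos and Junb lie above 1, with Egr1 at 1.54, and the other 6 include 1.

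Markers of other cells moved between the naive libraries as well. The summed FPKM of 6 B cell markers was 81.5 in WT and 39.1 in NLRP3KO, all 6 above 0 in both, with Cd79a and Cd79b at least 2-fold lower in NLRP3KO. After scaling 1 of these 6 was higher in NLRP3KO and 5 were lower. Of 8 myeloid markers 8 were above 0 in WT and 7 in NLRP3KO (Cd14 at 0), with sums of 77.7 and 68.9 FPKM and Tyrobp at least 2-fold lower. As deposited, Lyz2 (15.4 against 11.9 FPKM), S100a9 (27.6 against 21.7), Fcer1g (4.04 against 2.27) and Itgam (1.00 against 0.728) were higher in NLRP3KO. After scaling 2 of the 8 myeloid markers were higher and 6 lower. Of 6 markers of CD8 T and NK cells 5 (Ncr1 at 0) and 6 were above 0, with sums of 43.7 and 29.4 FPKM and Gzma at least 2-fold lower. Cd8a was higher in NLRP3KO (1.87 against 0.898 FPKM), and after scaling 2 of these 6 were higher and 4 lower. Erythroid genes, whose globin copies share reads, summed to 1218 FPKM in WT and 593 in NLRP3KO. The 7 erythroid entries did not move one way: both entries of Hba-a1 were at least 2-fold higher in NLRP3KO (238 against 84.3 FPKM and 156 against 42.1) and 3, of Hba-a2 and Hbb-b2, lower, all 5 with scaled bounds apart. The other cells' sums were all lower in naive NLRP3KO, where the members were higher as deposited, and their part in the members' values was not tested.

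In the other lists of the same response no gene was at least 2-fold apart between the naive libraries. Of 18 other early response genes, such as Ier2, Dusp1 and Zfp36, 0 were at least 2-fold apart, with a median log2 difference of 0.11 and summed FPKM of 378 in WT and 581 in NLRP3KO. None of 8 other AP-1 and related genes (median -0.06), 15 genes of calcium and ERK signalling (median 0.00), 10 feedback and target genes of the EGR and NR4A factors (median -0.11), 7 activation surface genes (median 0.00) and 5 heat shock genes (median -0.17) was at least 2-fold apart. The 2 genes tied to CD69, S1pr1 and its activator Klf2, had a median of 0.14. Of the early genes outside the members Fosb, a further AP-1 subunit picked after its values were seen, was at 4.38 FPKM in naive WT and 12.6 in naive NLRP3KO, and at 0 in all Th2 libraries.

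The comparisons below share libraries with one another and are not independent. At day 3 the members split when set against naive cells of the same genotype. Deposited FPKM of Th2 genes are lower as a whole, by a median log2 difference of -1.91 in WT and -2.16 in NLRP3KO over genes above 0 in both libraries, so direction is given relative to that shift. In WT, Egr2 was 10.4-fold higher at day 3 after scaling (counting interval 3.86 to 24.0) and 1.69-fold higher as deposited, from 7 against 31 fragments. Junb was 2.91-fold lower after scaling (1.53 to 6.38) and 17.9-fold lower as deposited. Fos, with 0 fragments against 275, was at least 1.97-fold lower after scaling and at least 12.1-fold lower as deposited, taking 3 fragments in the day 3 library as the floor. Egr2 was higher and Junb lower under all 5 scalings tried, and the bound for Fos lay between 1.37-fold and 12.1-fold lower over them.

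The other members in WT were less certain. Nr4a3 was 7.21-fold higher after scaling (1.37 to 24.5) and 1.17-fold higher as deposited, from 3 fragments, with bounds that overlap. Nr4a1 was 3.70-fold lower after scaling (0.656 to 147), from 1 fragment, and 22.8-fold lower as deposited. Jun was 1.59-fold lower (0.538 to 7.78) after scaling and 9.79-fold lower as deposited. The direction of Egr1 and Cd69 turned with the scaling: Egr1 was 1.83-fold higher (0.725 to 3.85) after scaling but 3.36-fold lower as deposited, and Cd69 1.09-fold higher (0.222 to 3.27) but 5.62-fold lower. Egr3 had 0 fragments at day 3 and no scaled bound on its fold, and was at least 1.40-fold lower as deposited.

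Of the 10 members 2 (Egr2 and Nr4a3) were at least 2-fold higher in WT day 3 and 4 (Fos, Junb, Egr3 and Nr4a1) lower, while 9.99% of the 9562 genes kept were higher and 31.3% lower. With scaled bounds apart and values above 0 in both libraries, 1 member (Egr2) was higher, as were 2.93% of genes, and 2 (Junb and Nr4a1) were lower, as were 5.77%. The members' median log2 difference was -0.32 against -0.52 over the genes kept. With members listed at 0 set to the level of 3 fragments it was 0.11, and the counts were 3 higher, now with Egr3 (log2 difference 1.66), and 2 lower. As deposited 0 members were higher and 7 lower.

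In NLRP3KO cells Fos, with 0 fragments against 321, was at least 2.25-fold lower at day 3 after scaling and at least 16.3-fold as deposited. Nr4a1, with 0 against 159, was at least 1.12-fold lower after scaling and at least 8.10-fold as deposited. Jun was 4.77-fold lower (0.847 to 189) after scaling, from 1 fragment, and Junb 1.66-fold lower (1.05 to 2.82), from 18, while as deposited they were 34.6-fold and 12.1-fold lower. Jun and Junb were lower under all 5 scalings tried, and the bound for Fos lay between 1.68-fold and 16.3-fold lower over them. The log2 difference of Junb was -0.72 in the main scaling and -0.31 by upper quartile. Its counting interval was computed for the main scaling alone. For Nr4a1 the floor of 3 fragments gave no bound under 2 of the 5, with ratios of 0.831 by upper quartile and 0.875 by equal sums.

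For the EGR factors of NLRP3KO the direction again turned with the scaling. Egr1 was 1.72-fold higher (0.776 to 3.31) after scaling and 4.23-fold lower as deposited. Egr3 was 3.42-fold higher (0.395 to 13.6) after scaling and 2.12-fold lower as deposited, and Egr2 1.96-fold higher (0.0476 to 12.0) and 3.71-fold lower. The intervals of all 3 include 1. Cd69 was 1.41-fold lower (0.383 to 11.8) after scaling and 10.2-fold lower as deposited. Nr4a3, with 0 against 30 fragments, had no scaled bound and was at least 1.51-fold lower as deposited.

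Of the 10 members 1 (Egr3) was at least 2-fold higher in NLRP3KO day 3 and 4 (Fos, Nr4a1, Jun and Nr4a3) lower, while 10.8% of the 10048 genes kept were higher and 32.1% lower. With scaled bounds apart and above 0 in both libraries 0 were higher, as were 2.56% of genes, and 1 (Jun) was lower, as were 5.11%. The median was -0.57 for the members and -0.53 for the genes kept, so the members as a group stood close to genes in general, and with zeros set to 3 fragments the members' median was -0.13. The counts were then 2 higher and 2 lower, with Nr4a3 at a log2 difference of 1.67 and Nr4a1 at -0.13, and as deposited they were 0 and 8. Whether the day 3 difference of any member depends on genotype was not tested.

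**Figure D4:**
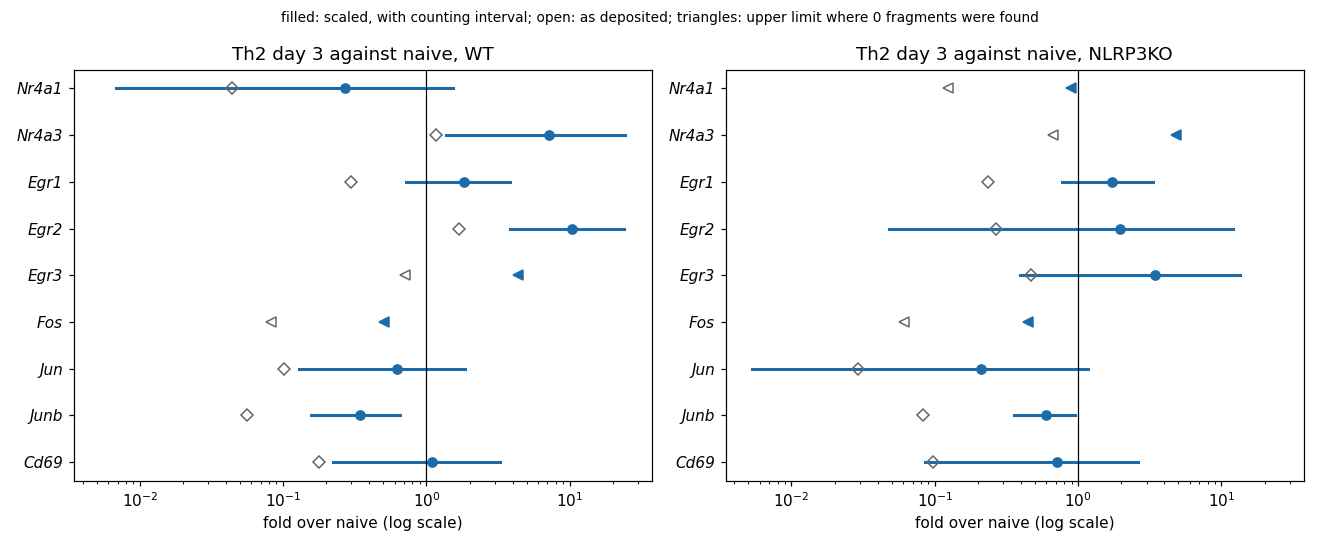
Fold of 9 members at Th2 day 3 over naive, on a log axis, in WT (left) and NLRP3KO (right): filled points are scaled FPKM with 95% counting intervals, open diamonds FPKM as deposited, and triangles upper limits where 0 fragments were found. Scaling moves every point to the right, and after it Egr2 in WT lies at 10.4 while Junb lies at 2.91-fold lower in WT and 1.66-fold lower in NLRP3KO.

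Other lists of the response were read in the same 2 comparisons. Over all genes kept 9.99% were higher and 31.3% lower in WT, and 10.8% and 32.1% in NLRP3KO. These shares are the background of each list count at day 3 against naive, here and in the paragraphs on the other lists and markers. Of the 18 other early response genes 3 were at least 2-fold higher and 7 lower at day 3 in WT, and 3 and 7 in NLRP3KO. Nfil3, a basic leucine zipper factor, was at 7.17 FPKM in WT day 3 against 0.723 in naive WT, and at 6.83 against 1.06 in NLRP3KO. Zfp36, whose product destabilises AU-rich transcripts, was at 3.90 FPKM in NLRP3KO day 3 against 127 in naive NLRP3KO, and Klf6 was at 1.22 in WT day 3 against 27.3. Mcl1, a survival factor, was at 3.96 in WT day 3 against 69.9, and Srf, the serum response factor, at 0.533 in NLRP3KO day 3 against 16.2. After scaling, Mcl1 and Klf6 were lower in WT (log2 differences -1.41 and -1.53) but not in NLRP3KO (0.49 and 0.20). Srf and Zfp36 were lower in both genotypes after scaling. Their log2 differences were -0.79 and -4.74 in WT and -1.35 and -2.01 in NLRP3KO, with Zfp36 listed at 0 in WT day 3.

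Myc, at 12.5 FPKM in WT day 3 against 13.6, and Batf, an AP-1 partner at 13.1 against 15.9, had like deposited values and were higher after scaling, by log2 differences of 2.26 and 2.14. Of the 8 other AP-1 and related genes 2 were higher and 1 lower in WT, where 4 were kept. In NLRP3KO 5 were higher and 1 lower, with 7 kept. There Fosl2 was at 6.99 FPKM against 1.53 and Batf at 16.6 against 17.8. Ier3 was at 8.91 FPKM in NLRP3KO day 3 against 0.706.

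Of the 15 calcium and ERK signalling genes 0 were higher and 2 lower in WT, and 0 and 6 in NLRP3KO. Rps6ka1, a kinase below ERK, was at 0.554 FPKM in WT day 3 against 19.5 and at 1.41 in NLRP3KO day 3 against 34.5. Rasgrp1, which activates RAS in T cells, was at 2.54 FPKM in NLRP3KO day 3 against 49.7, and Nfatc3 at 1.43 against 33.3. Of the 10 feedback and target genes 2 were higher and 1 lower in WT, and 3 and 1 in NLRP3KO, where Tnfrsf9, a costimulatory receptor, was at 25.0 FPKM against 6.87 and Bhlhe40 at 10.6 against 2.19.

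Activation surface genes other than Cd69 were in part higher at day 3. Of 7 such genes 4 were higher and 1 lower in WT, and 3 and 2 in NLRP3KO. Il2ra, the IL-2 receptor alpha chain, was at 24.0 FPKM in WT day 3 against 5.97 in naive WT and at 43.2 in NLRP3KO day 3 against 12.3, higher as deposited too. Tfrc, the transferrin receptor, was at 9.37 against 7.25 in WT and 6.62 against 8.62 in NLRP3KO, and Tnfrsf4 at 14.8 against 17.8 in WT, and after scaling all 3 of these day 3 values were higher than naive. Cd5, a damper of antigen receptor signals, was at 6.03 FPKM in WT day 3 against 86.3 and at 5.47 in NLRP3KO day 3 against 138. The partner of CD69, S1pr1, was at 1.72 FPKM in WT day 3 against 95.8 and at 0.730 in NLRP3KO day 3 against 135, and Klf2 at 1.98 against 94.7 and 1.26 against 147, so both genes of that list were lower in both genotypes.

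Cell type markers and heat shock genes moved between the same libraries. Of the 5 heat shock genes 0 were higher and 1 lower in WT (Dnajb1, at 0.781 FPKM against 23.9), and 0 and 0 in NLRP3KO. The myeloid and erythroid markers were at 0 in all 4 Th2 libraries, the B cell markers were at 0 there apart from Cd79b in WT day 3 (1.57 FPKM), and the markers of CD8 T and NK cells apart from Gzma in NLRP3KO day 3 (2.87 FPKM). Of the 8 T cell markers 6 were at least 2-fold lower in each genotype, against 31.3% of genes kept in WT and 32.1% in NLRP3KO. The part of these differences, of depth and of RNA selection in the members' day 3 values was not tested.

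Between genotypes at day 3, 2 members (Egr3 and Junb) passed 2-fold upward in NLRP3KO and 2 (Nr4a3 and Egr2) downward, while 25.4% of the 5749 genes kept were higher and 27.2% lower, so these counts lie near the background. The members' median log2 difference was -0.18 against 0.11 over the genes kept, and 0.14 with zeros set to 3 fragments. Junb was 2.24-fold higher (0.956 to 5.66), from 18 against 9 fragments. Egr2 was 6.24-fold lower (0.802 to 281), from 1 against 7 fragments, and Egr1 1.44-fold higher (0.478 to 4.55), from 9 against 7. Each of these intervals includes 1. Jun was 2.68-fold lower (0.215 to 140) and Cd69 at 0.747-fold (0.0624 to 6.52). Nr4a3 had 0 against 3 fragments and Egr3 2 against 0, so no fold is given. Members with scaled bounds apart numbered 0 in either direction, as against 0.818% of genes higher and 0.557% lower. In the other lists Fosl2, at 6.99 FPKM in NLRP3KO day 3 against 0.869 in WT day 3, and Mcl1, at 18.3 against 3.96, were higher with scaled bounds apart.

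At day 6 the NLRP3KO library was the shallowest, and 1 member (Nr4a3) was at least 2-fold higher there and 3 (Nr4a1, Egr3 and Junb) lower, while 20.9% of the 5336 genes kept were higher and 53.8% lower. The members' median was -0.56 against -1.52 over the genes kept, and 0.32 with zeros set to 3 fragments. The value of -0.56 includes Fos (-1.41), Nr4a2 (-1.09) and Jun (0), which were under 1 FPKM in both libraries. Junb was 2.20-fold lower in NLRP3KO (0.522 to 19.6), from 2 against 17 fragments. Egr1 was 1.29-fold higher (0.127 to 7.19), from 2 against 6, and Egr2 1.29-fold higher (0.0245 to 16.0), from 1 against 3. Cd69 was at 0.967-fold (0.0196 to 9.77) and higher under the 3 other scalings that could be run here. Nr4a1 had 0 against 4 fragments, Egr3 0 against 3, Fos 0 against 1 and Nr4a3 1 against 0. No member's scaled bounds were apart, as against 0.169% of genes higher and 0.581% lower. Of the other lists Hspa8, a constitutive heat shock protein, was lower with scaled bounds apart, at 19.7 FPKM in NLRP3KO day 6 against 46.6 in WT day 6.

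The 3 stages were also fitted together, with terms for genotype and stage, by limma on log2 of scaled FPKM plus 1, a fit chosen after seeing the data. It takes the genotype difference as 1 value over the stages, which are not replicates of a condition, and leaves 2 residual degrees of freedom. Of the 9 members that reached 1 FPKM in any library 0 passed an adjusted p of 0.05, as did 0% of 10542 genes, and 0 had an unadjusted p under 0.05, against 1.31% of genes. Nr4a1 and Egr1 shared the lowest limma adjusted p among them (0.75). The difference of Nr4a1 was -1.33 (SE 0.69). Egr1 was higher in NLRP3KO at 3 of 3 stages, by 0.44 (SE 0.37, limma adjusted p = 0.75).

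From day 3 to day 6 in WT, 2 members (Egr3 and Nr4a1) were at least 2-fold higher and 3 (Nr4a3, Jun and Egr2) lower. Of the 5592 genes kept 24.1% were higher and 20.2% lower. The members' median log2 difference was 0.58 against -0.03 over the genes kept, or -0.03 with zeros set to 3 fragments. The value of 0.58 includes Fos (1.41) and Nr4a2 (1.09), which were under 1 FPKM on both days. Junb was 1.83-fold higher (0.773 to 4.67), from 17 against 9 fragments, and Nr4a1 3.88-fold higher (0.384 to 191), from 4 against 1. Egr2 was 2.40-fold lower (0.548 to 14.4), Egr1 at 0.833-fold (0.231 to 2.89) and Cd69 1.29-fold higher (0.219 to 8.83). In NLRP3KO, 2 members (Nr4a3 and Egr2) were higher and 2 (Egr3 and Junb) lower, against 21% and 51.8% of 5207 genes, with a median of 0 against -1.31, or 1.22 with zeros set to 3 fragments. Junb was 2.69-fold lower (0.644 to 23.9), from 2 against 18 fragments, and Egr1 at 0.743-fold (0.0781 to 3.59). All of these intervals include 1. Members with scaled bounds apart numbered 0 in WT, against 0.161% of genes higher and 0.304% lower, and 0 in NLRP3KO, against 0.0576% higher and 0.25% lower. Il2ra was lower with scaled bounds apart in NLRP3KO day 6, at 21.6 FPKM against 43.2 at day 3.

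Over the 6 libraries the members' scaled values did not vary as 1 block, although most of their Th2 values rest on a handful of fragments. The mean log2 of scaled FPKM plus 1 over the 10 members was 2.30, 1.97 and 2.18 in WT cells (naive, day 3 and day 6) and 2.48, 1.68 and 1.60 in NLRP3KO cells. As a description over 6 libraries that also differ in depth and RNA selection, Pearson's r of a member with the mean of the other 9 was 0.89 for Nr4a1, 0.68 for Fos and 0.58 for Junb, between -0.17 and 0.34 for Jun, Nr4a2, Cd69 and Egr3, and -0.59 for Nr4a3, -0.66 for Egr2 and -0.80 for Egr1. Fos, Jun and Junb were highest in naive NLRP3KO after scaling, while Egr1 was highest in NLRP3KO day 3 and Egr2 in WT day 3. As deposited, all members but Egr2 and Nr4a2 were highest in naive NLRP3KO, so the split depends on the scaling. Among the 5 of 1306 genes whose pattern was most like the members' mean were Stat6 (r = 0.98), Rasgrp1 (0.97) and Vasp (0.97). Stat6, which carries the IL-4 signal, was at 29.0 and 44.4 FPKM in the naive libraries and between 1.72 and 3.88 in the Th2 ones.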

How the data were processed

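RNA was sequenced from 6 CD4 T cell libraries, 1 per group. The authors deposited 1 table per library of FPKM with confidence bounds and a status column, per the file headers. TopHat, Cufflinks and mm9 are named in the submitters' processing notes, and their versions, settings and gene annotation were not given in the sources used here. Of 23700 entries 285 carried a status other than OK and were left out. No count test applies to FPKM, and a comparison of 1 library with 1 leaves no residual degrees of freedom and has no test. A fit of genotype and stage over all 6 libraries (limma with an intensity trend, Benjamini-Hochberg adjustment) was added after seeing the data. From the deposited FPKM, values were scaled by the median ratio over 1059 genes with at least 1 FPKM in all 6 libraries, and bounds were multiplied by the same factors (0.328, 2.02 and 1.83 for WT naive, day 3 and day 6, and 0.245, 1.78 and 1.62 for NLRP3KO). Log2 differences used a pseudocount of 1, genes with at least 1 FPKM in at least 1 of the 2 libraries and a 2-fold threshold.

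The deposited bounds of a gene are whole multiples of a step, within a tolerance of 0.06 steps, and 1 fragment gives an upper bound of 3 steps. Fragments of 9 members and relative depth were inferred from this, and total depth is not used here. Counting intervals are exact 95% Clopper-Pearson intervals, transformed to folds by the libraries' FPKM per fragment, and treat the scaling factors as known. The floor for a value of 0 is 3 fragments per library. The method was checked on simulated data. The simulated differences were large and lay between deep libraries or under even noise. They do not cover differences that rest on a few Th2 fragments.

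All members are named. Of the other lists (other AP-1, early response, signalling, feedback and target, surface, CD69-linked and heat shock genes) up to 4 genes a comparison were named that were at least 2-fold apart with bounds apart. The rule was written for deposited bounds and was applied to scaled bounds above 0 in both libraries. A further rule took the 5 genes most correlated with the members' mean, of which 2 are not reported here. The members, lists, rules and marker sets were chosen with earlier results of these data known. Alternatives changed the scaling, the pseudocount, the filter and the treatment of zeros. Promoter windows come from RefSeq on GRCm38.p6, and exon and 3′ UTR features from GENCODE M21, matched by symbol. Coordinates of members are those of the tables on mm9. Python 3.11.15, numpy 2.4.6, pandas 2.3.3, scipy 1.17.1 matplotlib 3.10.9, R 4.3.3 and limma 3.58.1 were used.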

Additional observations from a re-analysis of the deposited data

Results flagged for a closer look

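At day 3 against naive 2 members were at least 2-fold apart in opposite directions in the 2 genotypes, each with few fragments at day 3, and the difference was not tested. Cd69 also differed in sign, by less than 2-fold in each genotype. For Nr4a3 the log2 difference in WT exceeded that in NLRP3KO by 3.14, from 3 day 3 fragments in WT and 0 in NLRP3KO. For Egr3 the gap between the genotypes was -2.82, from 0 day 3 fragments in WT and 2 in NLRP3KO. With zeros set to 3 fragments the signs were no longer opposite, at 1.91 in WT and 1.67 in NLRP3KO for Nr4a3 and at 1.66 and 1.34 for Egr3.

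NLRP3KO was at least 2-fold apart from WT in opposite directions at day 3 and day 6 for 3 members, and Egr2 differed in sign as well (-2.00 and 0.29). Taking day 3 minus day 6 on the log2 scale, this gap was -5.79 for Nr4a3 (0 against 3 fragments at day 3 and 1 against 0 at day 6) and 5.89 for Egr3 (2 against 0, then 0 against 3). For Junb, the member with the most fragments, it was 2.21, with 18 against 9 fragments at day 3 and 2 against 17 at day 6. With zeros set to 3 fragments the genotype difference was 0.14 at day 3 and 0.31 at day 6 for Nr4a3, no longer opposite, and -0.36 and 1.82 for Egr3, while Junb has no zero. The difference between the days was not tested for any of these, and each day's counting interval for Junb includes a fold of 1.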

How the results depend on the processing

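No paired analysis was possible because the labels carry no replicate numbers, apart from pairing the genotypes by stage, where 0 of 9 members passed limma's test in a fit added after seeing the data. With 1 library in each group none could be left out. Using FPKM as deposited moved the members' median log2 difference to 0.58 for NLRP3KO against WT in naive cells, to -2.44 for day 3 against naive in WT and to -2.83 in NLRP3KO, and turned Egr3 in the last to -0.90. In these 3 comparisons the median of all genes above 0 in both libraries moved to 0.37, -1.91 and -2.16. The naive genotype median was 0.31 with scaling over genes of at least 5 FPKM and 0.43 with equal sums without Rn45s and small RNAs, a setting added after seeing the data. Setting zeros to 3 fragments, which could be done for 9 members, turned 8 values that rest on 0 to 4 Th2 fragments. They were, for NLRP3KO against WT, Nr4a3 (0.14) and Egr3 (-0.36) at day 3 and Nr4a1 (1.38) and Egr3 (1.82) at day 6. Against naive at day 3 they were Egr3 in WT (1.66) and Nr4a3 in NLRP3KO (1.67), and for day 6 against day 3 Egr3 in WT (-0.037) and in NLRP3KO (2.14). The same setting turned the sign of 4 of the 7 medians, to 0.11 for day 3 against naive in WT, to 0.14 and 0.32 for NLRP3KO against WT at day 3 and day 6 and to -0.03 for day 6 against day 3 in WT, and moved that of day 6 against day 3 in NLRP3KO from 0 to 1.22. Of the counts of members 85 stayed within 1.5 times the reported count and 37 did not. Equal sums moved the median of all genes by more than 0.1, to 1.00 for NLRP3KO against WT at day 6. Upper quartile scaling was not run for the 2 comparisons with NLRP3KO day 6, whose upper quartile is 0. Depth limits every Th2 value: the 9 members held 7 to 38 fragments per Th2 library.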
